A study of Mus musculus with 6 samples.

Results

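Arntl, Clock, Npas2, Nfil3 and Cry1 are 5 of the 55487 genes counted in RNA from subcutaneous CT26.WT tumors, and they were taken by symbol from the count table. They were chosen from an earlier look at these same tumors, in which their levels in the IFN-γ group had been compared with those in the control group. That contrast is therefore given for them as a description, without a test. The labels give CT26.WT as colon carcinoma cells of BALB/c origin with the genotype WT, and all tumors came from this 1 line. The cells had been implanted under the skin of young male immunocompetent BALB/c mice, which then received either repeated tail vein injections of IFN-γ (IFN-γ group, 3 tumors) or PBS (control group, 3 tumors). The study asked which genes accompany the faster growth of tumors under IFN-γ stimulation in immunocompetent mice. The labels number the tumors but do not say that each came from a separate mouse, so the spread between tumors may be partly technical. The hour at which the tumors were collected is not given in the sources used here. Clock transcripts vary over the day, and a difference in hour cannot be told apart from the treatment in any value of these genes.

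The circadian clock is a transcriptional feedback loop found in most cells of the body. Arntl (also called Bmal1) pairs with Clock, or with the Clock paralog Npas2, and the pair activates genes that carry an E-box, among them the Per, Cry, Nr1d and Dbp genes. The Per and Cry proteins repress the pair. Nr1d1 and Nr1d2 (Rev-erb proteins) repress Arntl through a DNA element that the activating ROR proteins also bind, and for this reason Arntl transcript usually peaks when that of Dbp and Nr1d1 is low. Npas2, Nfil3 and Cry1 also answer to this element, and their transcripts peak near that of Arntl or, for Cry1, somewhat later. Nfil3 (E4bp4) is a repressor that competes with Dbp, Tef and Hlf for the D-box.

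Each member had 1 gene entry in the table. On GRCm38 (mm10, the build named in the submitters' processing notes), GENCODE M21 places Arntl (ENSMUSG00000055116) at bases 113207465 to 113314126 of chromosome 7, plus strand, with 6 transcripts. Clock (ENSMUSG00000029238) lies at bases 76209868 to 76304792 of chromosome 5, minus strand, with 6 transcripts. Npas2 (ENSMUSG00000026077) lies at bases 39193731 to 39363236 of chromosome 1, plus strand, with 3 transcripts. Nfil3 (ENSMUSG00000056749) lies at bases 52967209 to 52981073 of chromosome 13, minus strand, with 1 transcript. Cry1 (ENSMUSG00000020038) lies at bases 85131700 to 85185064 of chromosome 10, minus strand, with 4 transcripts. The only annotated gene that shares exon bases with a member was Gm45355, antisense to Arntl over 33 bases, and it had 0 counts in the 6 tumors together.

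The regulatory sequence around the starts of these genes was read from RefSeq (GRCm38.p6), which gave 8 windows for the 5 members, each from 250 bases before to 50 bases after a transcript start. The windows were searched on both strands for the E-box CACGTG, for the ROR core AGGTCA that Nr1d and ROR proteins bind and its variant GGGTCA, for the D-box forms TTACGTAA and TTATGTAA, for the cAMP response element TGACGTCA and for the interferon-linked GAS motif TTCNNNGAA. The E-box was present only in the Cry1 window, and 7.15% of the 32851 mouse windows held it. The ROR core was present in windows of Arntl, Nfil3 and Clock, and 16.3% of all windows held it. The other 5 motifs were in none of the 8 windows. GGGTCA occurred in 13.7% of all windows, GAS in 8.30%, the cAMP response element in 1.79%, TTATGTAA in 0.938% and TTACGTAA in 0.119%. The Npas2 window held none of the motifs searched.

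The stretches around the ROR core are shown because Arntl and Nfil3 are the tested members that differed most between the groups. Each is written 5′ to 3′ on the strand that reads AGGTCA, with the searched run AGTAGGTCA in capitals for these 2 genes and the core in capitals for Clock.
Arntl: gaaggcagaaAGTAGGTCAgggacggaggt
Nfil3: agatgtgtgttAGTAGGTCAgttccgagcg
Clock: ctgtcatctgtcAGGTCAgaggccaaagct
The Arntl stretch is chr7:113207529-113207558 on the plus strand, and its core lies within an exon of 2 annotated transcripts, from base 32 of the second RefSeq start. The Nfil3 stretch is chr13:52981032-52981061, read here on the plus strand and so opposite to the gene, and its core lies in the exon of the 1 annotated transcript. The Clock stretch is chr5:76303604-76303633, also read opposite to the gene, at the third RefSeq start and outside the annotated exons. The run AGTAGGTCA was read off the Arntl and Nfil3 windows after they were seen, where the base after it is also the same, and it contains the core. It occurred in 63 of the 32851 windows (0.192%), so it is rarer than the core but was picked to match these genes.

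For Cry1, the 250 bases before the start, chr10:85185055-85185304 on the minus strand, are shown with the E-box in capitals, since Cry1 is the member that the Arntl pairs are known to activate directly. The E-box begins 60 bases before the start.
Cry1: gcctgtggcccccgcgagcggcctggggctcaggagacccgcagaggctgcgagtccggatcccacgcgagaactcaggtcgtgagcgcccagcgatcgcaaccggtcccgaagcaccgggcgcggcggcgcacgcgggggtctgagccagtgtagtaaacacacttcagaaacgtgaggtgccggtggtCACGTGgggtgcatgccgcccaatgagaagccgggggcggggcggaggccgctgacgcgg
For Arntl, the 250 bases before its first start, chr7:113207215-113207464 on the plus strand, hold none of the motifs searched and are shown for comparison.
Arntl: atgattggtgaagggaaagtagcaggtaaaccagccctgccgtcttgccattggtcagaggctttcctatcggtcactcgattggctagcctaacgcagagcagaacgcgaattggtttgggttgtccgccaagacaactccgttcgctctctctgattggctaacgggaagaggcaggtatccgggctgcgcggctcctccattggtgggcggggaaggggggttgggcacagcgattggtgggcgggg
The share of G and C before the start was 58.8% for this Arntl window, 71.2% for Cry1, 81.6% for Nfil3, 74.8% for Npas2 and 76.4%, 77.6% and 49.2% for the 3 Clock windows, the third of which holds the core shown above, against a median of 52.4% over all windows. A match is a description of the letters, and no match says only that these letters are not in the window.

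The libraries held 15759300 to 17559680 counts on genes, and levels are given as CPM, the counts scaled to a common library size with TMM factors. The floor, a level worth 3 counts, was 0.169 to 0.188 CPM and reflects counting error alone. IFN-γ tumor 3 stood apart, first in its interferon response. The median log2 ratio to the control mean over 12 IFN-γ response genes was 0.963 in IFN-γ tumor 1, 0.998 in IFN-γ tumor 2 and -0.035 in IFN-γ tumor 3. The fold changes of the members and of the called clock genes, and several list medians, are therefore also given without it. Its markers of T cells, natural killer cells and keratinocytes stood apart too and are given with the other cell types. Among 9 colon epithelium markers, Cdx2 was at 0 counts in every tumor and Epcam lay between 0.0571 and 0.928 CPM. Krt20 was at 271 CPM in IFN-γ tumor 3 and between 113 and 174 CPM in the other tumors.

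All 5 members had lower CPM in every IFN-γ tumor than in any control tumor. Of these, 4 passed the filter on low counts, and Npas2 did not. Across the 15114 genes tested, 7.5% had all 3 IFN-γ tumors below all 3 controls and 7.62% had them above, 15.1% in either direction. All 4 tested members had a log2 fold change below 0, as had 49.6% of genes tested, and 2 of them had one of -1 or less, as had 0.668% of genes tested. The members were chosen from this contrast, so nothing is read from these numbers. The median log2 fold change of the 4 tested members was -1.01, against 0.0015 over all genes tested. In a bulk tumor, fewer cells of a type and less RNA per cell cannot be told apart.

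**Figure D1:**
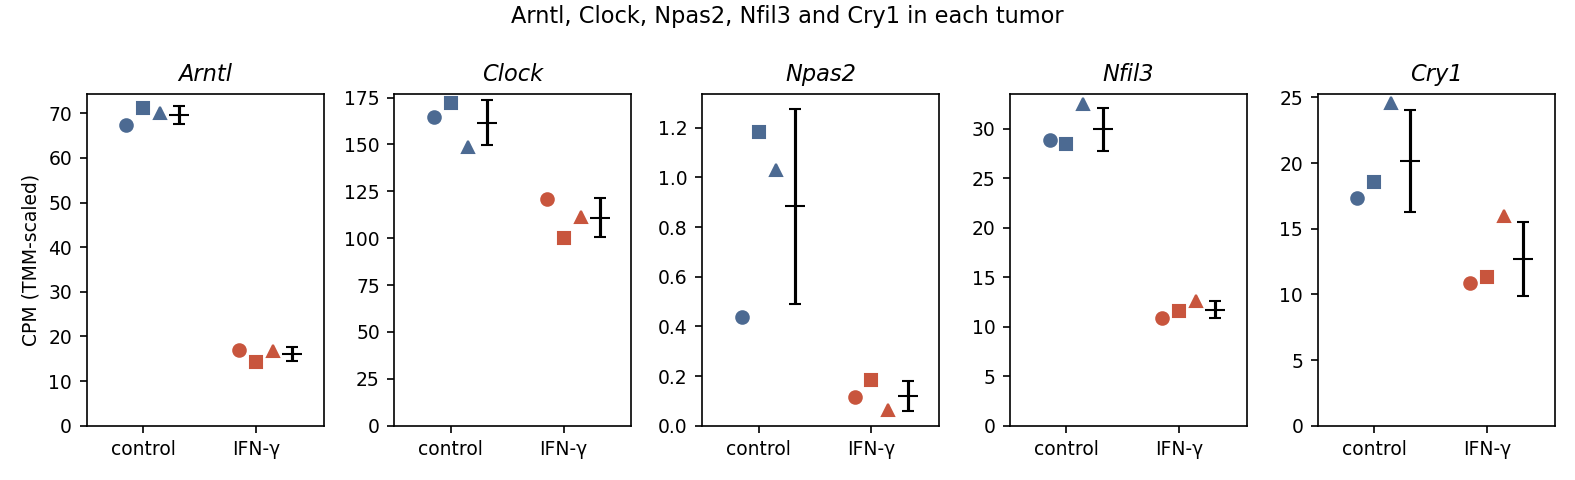
CPM (vertical axes, each from 0) of the 5 members in the 3 control and the 3 IFN-γ tumors; circles, squares and triangles are tumors 1, 2 and 3, and the black mark gives the mean ± SD (n = 3). Arntl sits between 67.5 and 71.3 CPM in the controls and between 14.2 and 17.1 in the IFN-γ tumors, while the Cry1 groups come closest, at 17.4 for the lowest control and 15.95 for the highest IFN-γ tumor.

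Arntl is the partner that both activator pairs need. It was at 67.5, 71.3 and 70.1 CPM in control tumors 1, 2 and 3. In the same order, the IFN-γ tumors held 17.1, 14.2 and 16.6 CPM. The controls were nearly alike, and the lowest of them was 3.95 times the highest IFN-γ tumor. Control tumors averaged 69.6 ± 1.95 CPM (SD, n = 3) and IFN-γ tumors 15.96 ± 1.56 CPM (SD, n = 3), which is 22.9% of the control mean. The log2 fold change was -2.12 (standard error 0.095) in the edgeR fit, and -2.16 without IFN-γ tumor 3. The SD of log2 CPM among the controls was 0.040 for Arntl, below the 0.136 of the median gene tested.

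Clock, the DNA-binding partner of Arntl, differed less. It was at 164, 172 and 149 CPM in control tumors 1, 2 and 3, and the IFN-γ tumors held 121, 100.4 and 111 CPM. The groups did not overlap, but the lowest control was only 1.23 times the highest IFN-γ tumor. The mean went from 162 ± 11.9 CPM (SD, n = 3) to 111 ± 10.4 CPM (SD, n = 3), or 68.6% of the control mean, with a log2 fold change of -0.54 (standard error 0.093), and -0.55 without IFN-γ tumor 3. Clock had 1643 to 3049 counts per tumor, the most of any member, so counting error is a small part of this spread.

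Npas2, which can take the place of Clock, was barely detected. Its control counts were 7, 21 and 18, and its IFN-γ counts 2, 3 and 1, which correspond to 0.438, 1.18 and 1.03 CPM against 0.116, 0.183 and 0.0618 CPM. No IFN-γ tumor exceeded the floor of 3 counts. Summed over tumors, 46 counts stood against 6, a ratio of control to IFN-γ of 7.45 with an exact binomial 95% interval of 3.17 to 21.3, which covers counting error only. With low counts left unfiltered, its log2 fold change was -2.81 (standard error 0.68). In the filtered fit without IFN-γ tumor 3, which it passed, the log2 fold change was -2.53. At this depth the size of the difference is poorly fixed.

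Nfil3, the D-box repressor, was at 28.8, 28.5 and 32.5 CPM in the controls and at 10.9, 11.5 and 12.6 CPM in the IFN-γ tumors. Within each group its values lay close together, with an SD of log2 CPM of 0.103 in the controls and 0.101 in the IFN-γ tumors. The mean was 29.9 ± 2.21 CPM (SD, n = 3) and 11.7 ± 0.861 CPM (SD, n = 3), or 39.1% of the control mean. Its log2 fold change was -1.36 (standard error 0.11), and -1.42 without IFN-γ tumor 3.

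Cry1, the member that acts as a repressor of the Arntl pairs, had the widest spread of the tested members. It was at 17.4, 18.5 and 24.6 CPM in the controls and at 10.9, 11.4 and 15.95 CPM in the IFN-γ tumors. Tumor 3 was the highest of its group on both sides, so that IFN-γ tumor 3 came near control tumor 1. The means were 20.2 ± 3.86 and 12.7 ± 2.81 CPM (SD, n = 3 each). The log2 fold change was -0.67 (standard error 0.19), and -0.87 without IFN-γ tumor 3.

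Ordered by level per exon length, the members ranked Clock, Nfil3, Cry1, Arntl and Npas2 over the 6 tumors. The members were chosen by the contrast between the groups, and the pooled levels include the IFN-γ tumors in which they were low. That choice thus enters the order. The order was also read from the same 6 tumors that the test below uses, with both groups pooled. The pairs and their directions thus come from the values tested, and the p-values are descriptive. The 4 neighbours in this order were compared on the scale of log2 of CPM plus 0.5 per kb, which understates the distance to a gene as low as Npas2, with a two-sided exact paired permutation test, for which 0.03125 is the smallest p that 6 tumors allow. Nfil3 was above Cry1 by 0.96 (SD 0.40) and Arntl was above Npas2 by 4.57 (SD 0.62), each in 6 of 6 tumors (exact permutation p = 0.03125, adjusted p = 0.0625). Clock exceeded Nfil3 by a mean of 0.041 (SD 0.46, exact permutation p = 0.8125, adjusted p = 0.8125) and Cry1 exceeded Arntl by 0.12 (SD 0.83, exact permutation p = 0.71875, adjusted p = 0.8125), but each of these was the higher one in only 3 of 6 tumors. Clock minus Nfil3 was -0.35 in the controls and 0.43 in the IFN-γ tumors. Cry1 minus Arntl was -0.61 and 0.84 in the same order. The pooled values of these pairs thus average opposite orders. No pair passed 0.05 after adjustment over the 4 pairs.

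The order was not the same in the 2 groups. In the controls, the mean levels per kb were 14.8 ± 1.09 CPM for Nfil3, 11.8 ± 0.865 for Clock, 9.25 ± 0.259 for Arntl, 6.04 ± 1.16 for Cry1 and 0.184 ± 0.0822 for Npas2 (SD, n = 3 each). In the IFN-γ tumors they were 8.08 ± 0.757 CPM per kb for Clock, 5.77 ± 0.425 for Nfil3, 3.81 ± 0.841 for Cry1, 2.12 ± 0.208 for Arntl and 0.0251 ± 0.0127 for Npas2. Arntl was thus above Cry1 in the controls and below it in the IFN-γ tumors, and Nfil3 and Clock also changed places. These places depended on the length used. The longest transcript was also used in place of all exons. On the log2 scale, mean Clock minus Nfil3 was then 0.15 in the controls and 0.92 in the IFN-γ tumors. The group means thus no longer changed places, and Clock was the higher one in 5 of 6 tumors. With this length, mean Cry1 minus Arntl was -1.38 in the controls and 0.069 in the IFN-γ tumors. Arntl stood above Cry1 by 0.65 over the 6 tumors, and Cry1 was the higher one in 2 of them.

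**Figure D2:**
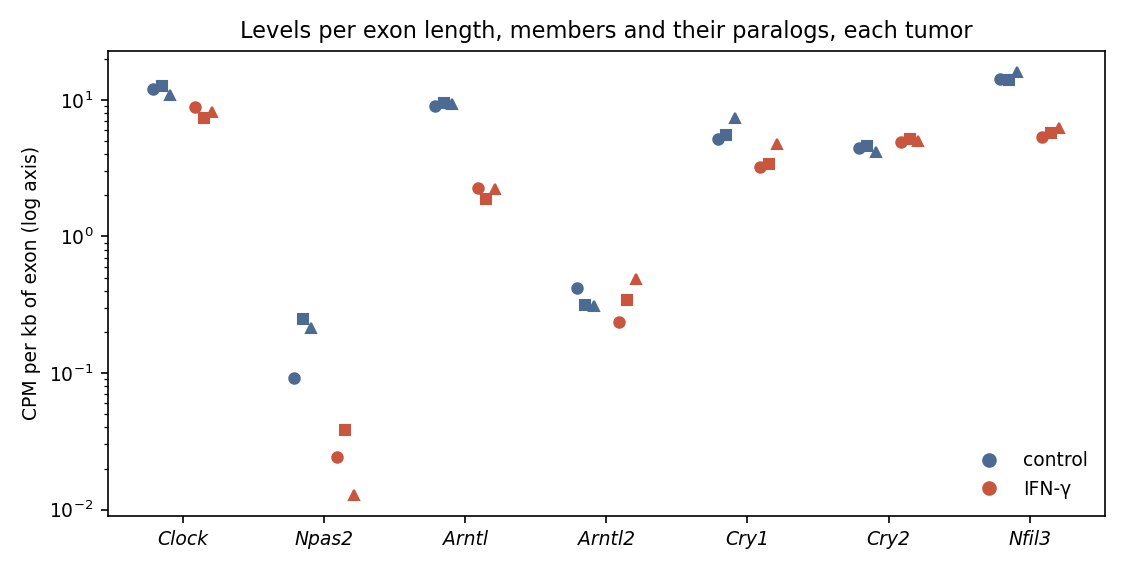
CPM per kb of exon (log axis) of the members and of the paralogs Arntl2 and Cry2 in each tumor, with controls in blue, IFN-γ tumors in red and circles, squares and triangles for tumors 1, 2 and 3. Npas2 lies far under Clock in all 6 tumors (its IFN-γ points rest on 1 to 3 counts each), the Arntl groups are apart while those of Arntl2 overlap, and Cry2 lies between 4.18 and 5.15.

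The paralogs of the members, which the choice of members did not include, are given beside them. Arntl2, which can also pair with Clock, was at 2.38, 1.80 and 1.77 CPM in the controls and 1.34, 1.95 and 2.78 CPM in the IFN-γ tumors. Its groups overlapped, with a log2 fold change of 0.029 (SE 0.33, edgeR adjusted p = 0.99). Cry2 was at 28.3, 28.9 and 26.4 CPM in the controls and 30.8, 32.6 and 31.4 CPM in the IFN-γ tumors. All 3 IFN-γ values of Cry2 were above the controls, but its log2 fold change of 0.18 (standard error 0.085) did not pass the test (adjusted p = 0.51, edgeR). Whether a member and its paralog differed in their response was not tested, because the members were chosen for theirs.

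Ratios within a tumor do not depend on its library size. The members were chosen from the contrast between the groups, so a gap between the groups in these ratios is a description only. Per kb of exon, Arntl stood at 0.749, 0.756 and 0.861 times Clock in control tumors 1, 2 and 3, and at 0.257, 0.258 and 0.273 times Clock in the IFN-γ tumors. The IFN-γ tumors were almost identical in this ratio, IFN-γ tumor 3 included. Arntl stood at 21.5, 29.9 and 29.9 times Arntl2 in the controls and at 9.67, 5.48 and 4.52 times Arntl2 in the IFN-γ tumors. Clock stood at 131, 50.7 and 50.4 times Npas2 and at 364, 191 and 627 times Npas2 in the same order, where the IFN-γ values rest on 1 to 3 Npas2 counts. Cry1 stood at 1.16, 1.22 and 1.76 times Cry2 in the controls and at 0.666, 0.660 and 0.961 times Cry2 in the IFN-γ tumors. Per length, Cry1 was thus the higher in each control and Cry2 in each IFN-γ tumor. This change of places rests on the exon lengths used, 3340 bases for Cry1 and 6320 for Cry2. In CPM, without division by length, Cry2 was above Cry1 in every tumor of both groups.

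Ratios of a member to a gene of the opposite phase lay further apart between the groups. The choice of members and the higher Dbp and Nr1d1 of the IFN-γ tumors fix this direction, so nothing is read from it. Nfil3 stood at 4.97, 5.04 and 7.05 times Dbp per kb in the controls and at 0.123, 0.102 and 0.115 times Dbp in the IFN-γ tumors. These are the repressor and an activator of the same D-box, and the more abundant transcript was Nfil3 in each control and Dbp in each IFN-γ tumor. Arntl stood at 1.56, 1.59 and 3.39 times its repressor Nr1d1 in the controls and at 0.0714, 0.0526 and 0.0645 times Nr1d1 in the IFN-γ tumors. Control tumor 3 had the highest value of both ratios.

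**Figure D3:**
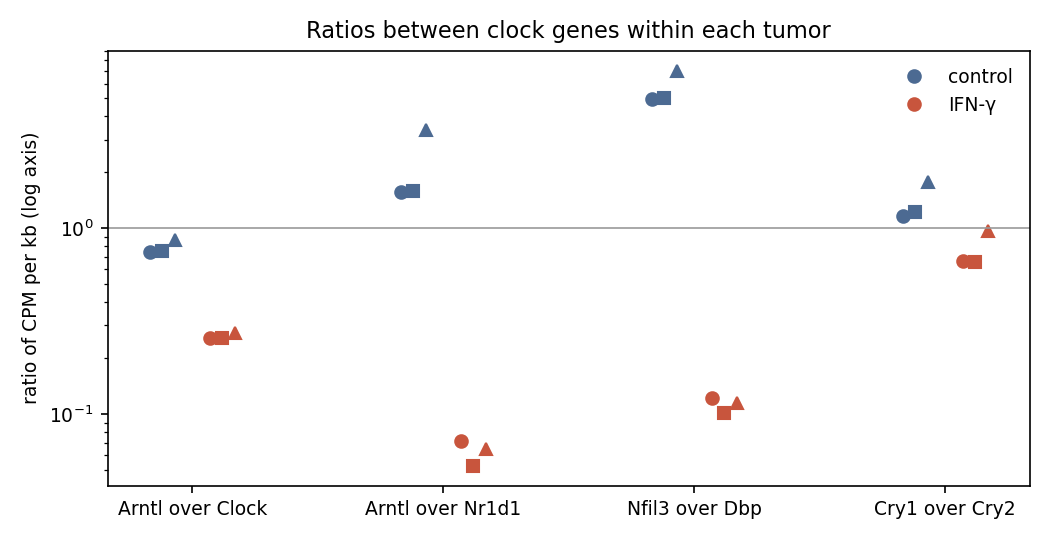
Ratios of CPM per kb of exon between pairs of clock genes within each tumor (log axis, line at 1), with controls in blue, IFN-γ tumors in red and circles, squares and triangles for tumors 1, 2 and 3. The groups do not overlap in any of the 4 ratios, but the members in them were chosen from this contrast. Nfil3 over Dbp runs from 4.97 to 7.05 in the controls and from 0.102 to 0.123 in the IFN-γ tumors.

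The other genes of the clock were taken from lists of 39 genes that hold none of the members, of which 35 were tested. Of these, 7 passed as higher under IFN-γ and 0 as lower after adjustment over all genes (edgeR's quasi-likelihood test), against 0.0794% of all genes called higher and 0.0331% called lower. At an unadjusted p under 0.05, 14 were higher and 2 lower. Of all genes tested, 10.2% had such a p, 5.74% higher and 4.44% lower, and the counts at this p in other lists are to be read against these shares. DESeq2 called 12 higher and 1 lower, and limma-voom 6 and 0. Without IFN-γ tumor 3 the number higher was 13, and without control tumor 2 or IFN-γ tumor 1 it was 4. Dbp, Nr1d1, Nr1d2 and Tef were called in all 13 other fits, while Per1, Per2 and Bhlhe41 were not called in some of them. The lists were written with earlier results of these tumors known.

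Among the 9 clock repressors, 5 passed the test and all 9 had a log2 fold change above 0, with a median of 1.11. Nr1d1, which represses Arntl, was at 17.6, 18.4 and 8.46 CPM in the controls and 97.8, 110.2 and 105.5 CPM in the IFN-γ tumors. It rose by 2.82 on the log2 scale (SE 0.25, edgeR adjusted p = 0.0055), and Nr1d2 rose by 2.19 (SE 0.18, edgeR adjusted p = 0.0043). Per1 rose by 1.66 (adjusted p = 0.0062, edgeR), Per2 by 0.88 (adjusted p = 0.0064, edgeR) and Bhlhe41, an E-box repressor, by 0.89 (adjusted p = 0.0485, edgeR) on the log2 scale. Per3 (1.11), Ciart (1.30), Bhlhe40 (0.43) and Cry2 did not pass, although their groups did not overlap. Without IFN-γ tumor 3, the log2 fold changes of the called repressors were 2.80 for Nr1d1, 2.17 for Nr1d2, 1.78 for Per1, 0.85 for Per2 and 0.78 for Bhlhe41. Cry1 was the only gene among the cryptochrome and Per repressors whose IFN-γ values lay below the controls.

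Of the 3 PAR bZIP factors, which activate the D-box that Nfil3 represses, Dbp and Tef passed. Tef was at 54.6, 55.4 and 43.3 CPM in the controls and 219, 230.2 and 234 CPM in the IFN-γ tumors, and rose by 2.15 on the log2 scale (SE 0.11, edgeR adjusted p = 1.06e-04). Dbp was at 8.57, 8.34 and 6.80 CPM in the controls and 132, 168 and 162 CPM in the IFN-γ tumors, and rose by 4.28 (SE 0.14, edgeR adjusted p = 8.71e-06). Without IFN-γ tumor 3 the values were 2.13 for Tef and 4.23 for Dbp. Hlf, at 0.789 to 1.71 CPM in the controls and 3.54 to 4.64 in the IFN-γ tumors, did not pass (log2 fold change 1.69, edgeR adjusted p = 0.14).

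Rora, an activator that acts on the ROR element of Arntl, was low in these tumors. It lay between 3.83 and 4.86 CPM in the controls and between 3.09 and 6.48 CPM in the IFN-γ tumors, with overlapping groups (log2 fold change 0.25, edgeR adjusted p = 0.83). Rorb had 1 count in all. None of the 3 tested genes in the list of ROR activators and Arntl2 was called by edgeR, DESeq2 or limma-voom, and 0 had an unadjusted p under 0.05.

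Kinases and ligases set the stability of clock proteins. Of the 9 tested kinases, ligases and stabilizers, 0 passed in edgeR, DESeq2 or limma-voom and 0 had an unadjusted p under 0.05, with a median log2 fold change of -0.034. Csnk1d, a kinase of Per proteins, was at 173 to 183 CPM in the controls and 169 to 170.4 CPM in the IFN-γ tumors.

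Other genes known as targets of the Arntl pairs or of Nr1d1 and Nr1d2 did not pass in edgeR. Wee1, a cell cycle kinase with E-boxes, was at 34.1, 35.8 and 34.7 CPM in the controls and 46.6, 48.6 and 53.3 CPM in the IFN-γ tumors (log2 fold change 0.50, edgeR adjusted p = 0.096). Nampt had a log2 fold change of 0.35 (edgeR adjusted p = 0.35) and Noct one of -0.092 (adjusted p = 0.87, edgeR). Of these 3 genes, 2 had an unadjusted p under 0.05, both higher, and DESeq2 called 1.

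Of the 8 tested genes reported to be repressed by Nr1d1 and Nr1d2, 4 had a log2 fold change above 0 and 4 below, with a median of 0.052. Cdkn1a, a cell cycle inhibitor, was at 206, 162 and 183 CPM in the controls and 106, 108 and 136 CPM in the IFN-γ tumors (log2 fold change -0.65, edgeR adjusted p = 0.15). Ccl2 and Cx3cr1 had overlapping groups. At an unadjusted p under 0.05, 1 of the 8 was higher and 2 were lower. DESeq2 called 1 in each direction and limma-voom none.

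**Figure D4:**
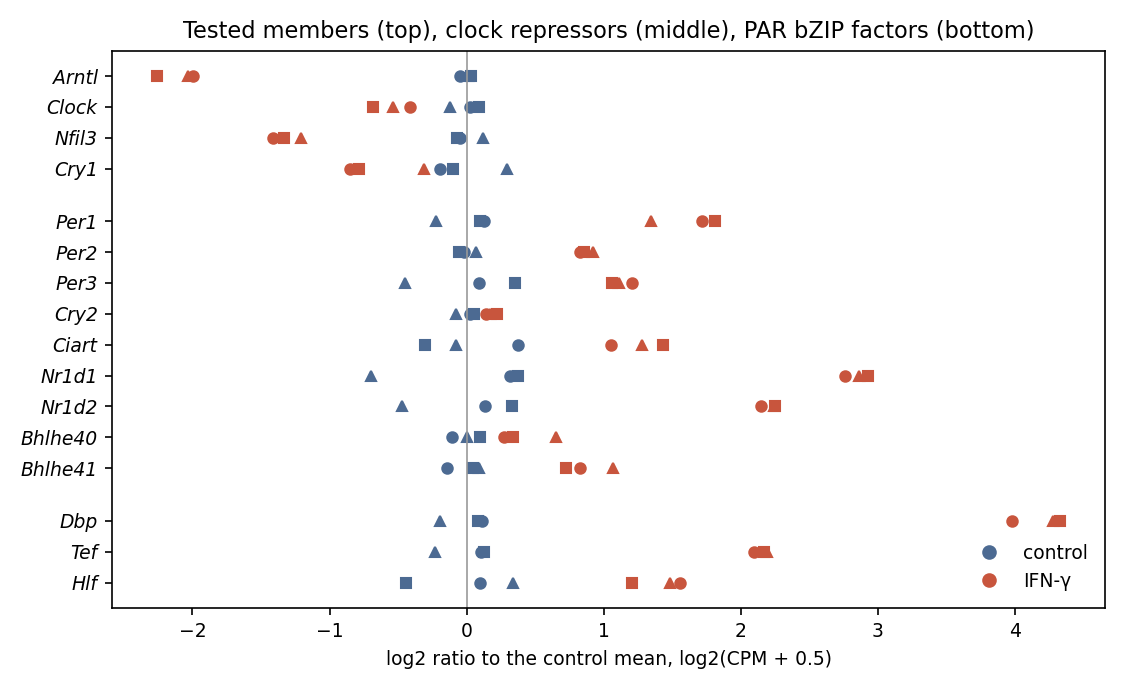
Log2 ratio to the control mean, on the scale of log2(CPM + 0.5), of the tested members (top), the clock repressors (middle) and the PAR bZIP factors (bottom) in each tumor, with controls in blue, IFN-γ tumors in red and circles, squares and triangles for tumors 1, 2 and 3. The members lie left of 0 in the IFN-γ tumors and the other 12 genes right of it, with the Cry2 groups closest together.

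Within the IFN-γ group, the clock genes were compared with the interferon response tumor by tumor. The median log2 ratio of the tested members was -1.13, -1.06 and -0.87 in IFN-γ tumors 1, 2 and 3, and that of the clock repressors was 1.05, 1.06 and 1.11. The 3 medians of the clock repressors lay close together. IFN-γ tumor 3, the one without a raised response list, had the member median nearest the controls. Cry1 was the member nearest the controls there, with a log2 ratio of -0.31 against -0.85 and -0.79 in IFN-γ tumors 1 and 2. Over all 6 tumors, 0 of the 12 response genes passed in edgeR, 8 had an unadjusted p under 0.05 and DESeq2 called 1. The median log2 fold change of this list was 0.65, and 0.94 without IFN-γ tumor 3. The reading of IFN-γ tumor 3 rests on 1 library and is a description. Among 7 glucocorticoid targets, Per1 and Tsc22d3 passed, and Tsc22d3 was at 56.4 to 75.5 CPM in the controls and 125 to 151 CPM in the IFN-γ tumors (log2 fold change 1.10, edgeR adjusted p = 0.023). The median of that list was 0.51, and its part in the levels of the members was not tested.

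**Figure D5:**
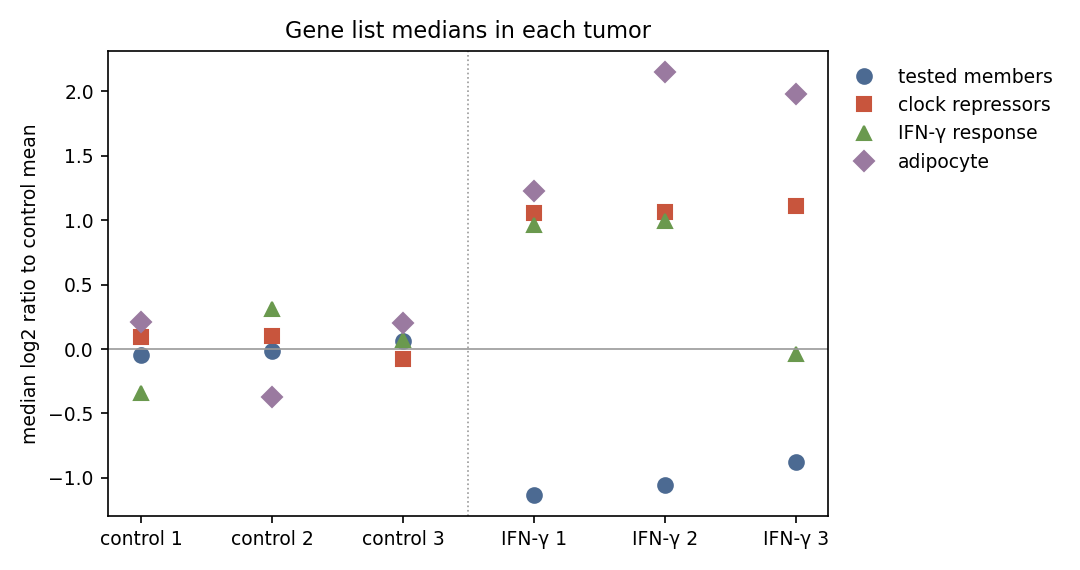
Median log2 ratio to the control mean, on the scale of log2(CPM + 0.5), in each of the 6 tumors (horizontal axis; the dotted line parts the groups) over the tested genes of 4 lists: the members, the clock repressors, the IFN-γ response and the adipocyte markers. The members lie between -1.13 and -0.87 in the IFN-γ tumors, where IFN-γ tumor 3 has -0.035 for the IFN-γ response but 1.11 for the clock repressors.

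Markers of other cell types were examined beside these values. All 8 adipocyte markers had a log2 fold change above 0, with a median of 2.17, and 7 had groups that did not overlap. Their summed level was 112 to 152 CPM in the controls and 158 to 213 CPM in the IFN-γ tumors. Fabp4 made up most of this sum, at 91.0 to 134 CPM in the controls and 118 to 141 CPM in the IFN-γ tumors. Its groups overlapped, with a log2 fold change of 0.23, and that of Plin4 was 0.78. The low markers Adipoq, Plin1 and Lep lay between 0.0571 and 1.81 CPM in the controls and between 0.916 and 6.84 CPM in the IFN-γ tumors. The median log2 fold changes of the other lists were 0.36 for macrophages, 0.038 for neutrophils, 0.38 for T cells, 0.12 for natural killer cells, -0.75 for B cells, -0.20 for endothelium, 0.17 for fibroblasts, -0.35 for skeletal muscle and -0.39 for colon epithelium, and the 1 tested keratinocyte gene had 0.45. For several lists these medians depended on IFN-γ tumor 3. The T cell median log2 ratio to the control mean was 0.60, 0.77 and -0.88 in IFN-γ tumors 1, 2 and 3, and that of natural killer cells was 0.34, 0.65 and -0.96. The summed keratinocyte markers reached 69.3 CPM in IFN-γ tumor 3 and lay between 2.75 and 12.3 CPM in the other 5 tumors. Without this tumor, the median log2 fold change was 0.74 for T cells, 0.52 for natural killer cells, 0.61 for macrophages, -0.35 for neutrophils, -1.12 for B cells, 0.33 for fibroblasts, 0.00052 for skeletal muscle, -0.11 for endothelium, -0.53 for colon epithelium, 2.15 for adipocytes and -0.58 for the keratinocyte gene. No marker of these 11 lists passed in edgeR or limma-voom. DESeq2 called 6 adipocyte and 2 macrophage markers, all higher, against 125 higher and 71 lower of the 15114 genes tested. At an unadjusted p under 0.05, 7 adipocyte and 4 macrophage markers were higher. At that p, 1 macrophage, 2 endothelium and 1 B cell marker were lower. The part of these cells in the levels of the members was not tested.

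The genes most like each member across the 6 tumors were sought among tested genes with a mean of at least 1 CPM and at least 0.5 times its SD of log2 CPM. The points share the split between the groups, so a high Pearson r over n = 6 tumors is a description only. For Arntl, 514 genes met the limits. The highest r were those of Nfil3 (0.99), 5430425K12Rik (0.98) and Abcc9 (0.98), a subunit of potassium channels, and the lowest were those of Dbp (-0.997), Tef (-0.992) and Per1 (-0.981). Of these, Nfil3 is a fellow member and the 3 lowest are clock genes, while 5430425K12Rik and Abcc9 are on none of the clock lists. For Nfil3, the highest were AC168977.1 (0.996), Arntl (0.99) and 5430425K12Rik (0.99), and the lowest were again Tef, Per1 and Dbp, each at -0.99.

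The other members had no clock gene among their nearest. For Clock, whose small SD let 7041 genes in, the highest r were those of Bank1 (0.996), Rhot2 (0.99) and Zfp692 (0.99) and the lowest those of Plin1, Adhfe1 and Tspan4, each at -0.99. For Npas2 the highest were Gm39822 (0.98), Mybl2 (0.97) and Heyl (0.97) and the lowest Fkbp1b (-0.97), Tsc22d3 (-0.97) and Ephx1 (-0.96). For Cry1 the highest were Gm9115 (0.99) and Spag4 (0.97) and the lowest Bmyc (-0.99), Zfp467 (-0.99) and C130013H08Rik (-0.98). Among the members themselves, r ran from 0.69 for Cry1 with Clock to 0.99 for Nfil3 with Arntl.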

How the data were processed

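RNA from 6 tumors was sequenced, 3 of each group. The deposited table gives each gene's raw read count in each tumor, with no normalization by the authors. The submitters' processing notes name HISAT2 and mm10; the counting program, its annotation and its use of strand are not given in the sources used here. In GENCODE M21 (GRCm38), 99.4% of the identifiers were found. TMM factors scaled the libraries, and edgeR 4.0.16 in R 4.3.3 gave the tests (default filter on low counts, quasi-likelihood test, Benjamini-Hochberg adjustment, threshold 0.05). The standard error is the log2 fold change divided by the square root of F. Levels between genes used the union of exons. DESeq2 1.42.0, limma 3.58.1 (voom), other scalings and filters, a replicate block and fits leaving out 1 tumor each were the alternatives. The edgeR fit was tested on simulated data.

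The members and lists were chosen with earlier results of these data known. Named were the members, each called clock gene, from every other list the called genes or up to 4 of the most abundant, and the 3 genes highest and lowest in r. The adipocyte and colon markers given singly were chosen after their values were seen. A few genes that this rule names are not reported here. Any pair of tumors correlated at 0.980 to 0.993 in log2 CPM, and no pair was counted as 1 sample. The edgeR p-values set a difference between the groups against the spread between these tumors, which may be partly technical.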

Additional observations from a re-analysis of the deposited data

How the results depend on the processing

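The direction held in every fit run for the 4 tested members and the 7 called clock genes. Across all 14 fits, the log2 fold change lay between -2.17 and -2.05 for Arntl, -0.61 and -0.48 for Clock, -1.42 and -1.30 for Nfil3 and -0.87 and -0.51 for Cry1. For Npas2, which could be fitted in 5 of them, it lay between -3.21 and -2.53. The numbers of genes called moved more. DESeq2 called 12 clock pathway genes higher and 1 lower (all genes: 125 and 71), and leaving low counts unfiltered gave 13 and 1 (all genes: 150 and 70). In all genes, edgeR called 12 higher and 5 lower, library size only gave 7 higher and limma-voom 3 lower. Leaving out each tumor gave 4 to 13 clock pathway genes higher and 0 to 1 lower, and 4 to 381 of all genes higher and 2 to 112 lower, with the highest numbers without IFN-γ tumor 3. With the replicate number as a block, 5 clock pathway genes and 5 of all genes were higher and 2 lower. The deviations of same-numbered tumors correlated at -0.24, -0.0047 and -0.22, and shared numbers were therefore not treated as pairs. On the level scale, Cry1 minus Arntl was -0.65 and Clock minus Nfil3 0.54 with the longest transcript. When each tumor was left out, Cry1 minus Arntl ranged from -0.082 to 0.29, Clock minus Nfil3 from -0.081 to 0.17, Nfil3 minus Cry1 from 0.86 to 1.07 and Arntl minus Npas2 from 4.37 to 4.73. The causes were not tested. Npas2 was the only member that failed the default filter on low counts with all tumors included, and the effect of depth on the others was not tested.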

Other observations

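The control tumors were not alike in their clock genes. Of the 12 clock repressors and PAR bZIP factors, 7 were lowest in control tumor 3, against 2 in control tumor 1 and 3 in control tumor 2. Highest of the controls were 3 of the 12 in control tumor 1, 6 in control tumor 2 and 3 in control tumor 3. The genes thus went both ways in control tumor 3. Nr1d1 was at 8.46 CPM there and at 17.6 and 18.4 CPM in control tumors 1 and 2, and Nr1d2 was at 26.6 CPM against 40.7 and 46.7 CPM. Nfil3 and Cry1 were highest among the controls in the same tumor, at 32.5 and 24.6 CPM, whereas Arntl, at 70.1 CPM, lay between the others and Clock was lowest, at 149 CPM. These are values of 1 library, and the order was noticed after the data were seen.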
